A study of Mus musculus with 16 samples.

Results

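The comparison described here set neutrophils sorted from the lungs of germ-free mice against neutrophils sorted from the blood of germ-free mice. Its members were chosen by the labels alone, as the 3 lung and 2 blood libraries labelled germ-free, which are 5 of the 16 libraries of the series. The other libraries came from the spleen of germ-free mice and from the blood, spleen and lung of specific pathogen free (SPF) mice, and all 16 entered 1 model so that the spread between libraries was estimated together. Every mouse was of the C57BL/6 strain and no agent or genetic change was named, so germ-free (GF) housing, which leaves an animal without microorganisms, was shared by both sides of the comparison. Cells were sorted with antibodies to CD45, CD11b and Ly6G and the dye DAPI, which marks dead cells, and the labels put the usual purity above 95%. RNA of the sorted cells was amplified before sequencing, and the labels do not say how lung tissue was taken apart. Nothing states that replicates are different mice, so a p-value here measures only how these libraries vary, and that variation may be technical.

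Neutrophils are short-lived phagocytes that leave the bone marrow for the blood with most of their granule proteins already made. The lung holds many of them in its narrow capillaries, from which they can enter the tissue after signals from chemokines and bacterial products. Such signals act through NF-kB and MAP kinases, which switch on a first wave of short-lived transcripts for cytokines, transcription factors and the inhibitors that later end the response.

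The lung libraries held 815506, 1147991 and 651389 reads (replicates 2, 3 and 4), and the blood libraries held 2555255 and 132798 (replicates 2 and 3). Levels are given as normalised counts, which are the deposited values less an offset of 0.5 reads. A single read was worth 0.468 normalised counts in blood replicate 2 and 7.41 in blood replicate 3, where 37.7% of the genes had 0 reads, so low blood levels rest mostly on replicate 2. Across genes, Spearman correlations were 0.908 to 0.921 between lung libraries, 0.876 between the blood libraries and 0.72 to 0.822 between lung and blood. Ly6g, the gene of the sorting marker, was present in every library, at 41.1, 44.3 and 20.3 in lung and at 97.3 and 29.6 in blood. Its log2 difference between lung and blood of -0.73 did not pass (adjusted p = 0.482 in limma). That difference was 0.03 without blood replicate 2 and -1.49 without blood replicate 3. Csf3r, the receptor of the growth factor G-CSF, did not pass the test either (8263, 7597 and 6593 in lung, 9748 and 7489 in blood).

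Of 8299 genes tested, 813 (9.8%) differed between GF lung and GF blood at an adjusted p under 0.05 in limma, 650 higher (7.83%) and 163 lower (1.96%). The counts of list members called below are to be read beside these shares. The median log2 difference over all genes tested was 0.15. Quantile, median-ratio and TMM rescaling moved that median to -0.14, 0.00 and 0.02 and the share of higher genes among those called from 80% to 65.8%, 64% and 66.6%. The count was 524 without lung replicate 4. No called gene had overlapping groups, a condition met with lung above by 28.8% of all genes tested and with lung below by 14.6%. Both directions differed in size and in starting level. Of the 650 higher genes, 512 differed by more than 2 on the log2 scale and 454 had a blood mean under 10. Of the 163 lower genes, 47 differed by more than 2 and 80 had a mean of at least 100 in both tissues. The balance depended on low genes. With a filter of 100 in 2 libraries, 239 genes were higher (62.2% of those called) and 145 lower, and the median over the genes tested was -0.10.

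**Figure D1:**
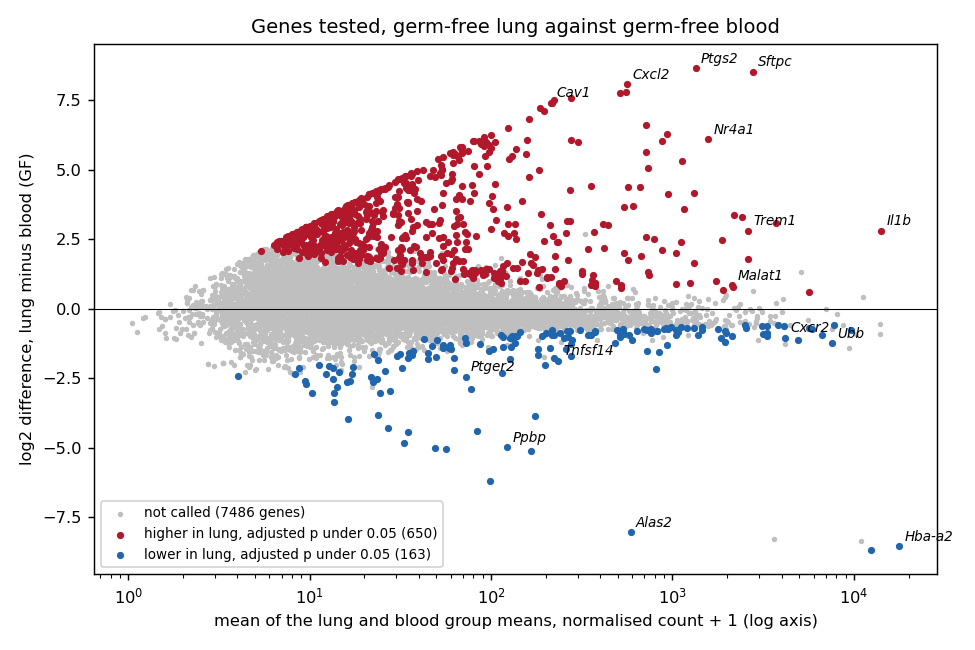
Log2 difference between lung and blood of GF mice (vertical axis) against the mean level of both groups (horizontal axis, normalised count plus 1, log axis) for 8299 genes. The 650 higher genes in red reach far from 0 at low and middle levels, and of the 163 lower genes in blue, 80 have a mean of at least 100 in both tissues and 47 lie below -2.

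Genes of chemokines, the secreted proteins that attract leukocytes, were among those with the largest differences. The list of 16 chemokine genes also holds the receptor-like gene Ccrl2. Of 10 tested, 7 were higher in lung and 0 lower, with a median difference of 3.76 against 0.15 over all genes. With a filter of 100 in 2 libraries, 3 were called higher. Cxcl3, a ligand of the receptor Cxcr2, measured 50.9, 49.6 and 129 in lung and 0.468 and 0 in blood (log2 difference 4.64, SE 0.65, adjusted p = 4.26e-06 in limma). Ccl3 and Ccl4, which attract monocytes and lymphocytes, measured 15.7, 29.2 and 100 and 47.1, 64.6 and 255 in lung, with lung replicate 4 the highest in both. In blood they measured 0.935 and 0 and 6.55 and 0 (differences of 3.56 and 3.96, adjusted p = 0.000526 and 8.87e-05 in limma). Ccrl2, which binds the attractant chemerin without signalling, was steadier. It measured 1723, 1805 and 1631 in lung and 33.2 and 14.8 in blood (6.05, SE 0.64, adjusted p = 2.87e-05 in limma), so that the lowest lung library was far above the higher blood library. Where the blood groups held only a few reads, as for Cxcl3 and Ccl3, the fitted difference depends on the pseudocount and on the offset. In these bulk samples, fewer cells of a type and less RNA per cell cannot be told apart.

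Not every chemokine gene rose. Ccl6, abundant in the blood libraries, measured 4797, 5630 and 4100 in lung and 6086 and 6544 in blood (-0.39, adjusted p = 0.22 in limma). Cxcl10, an interferon-induced ligand, measured 15.7, 44.3 and 29.0 in lung and 2.81 and 22.2 in blood, and its difference of 1.47 did not pass. It was 2.84 and passed without blood replicate 3, the shallow library, and 0.11 without blood replicate 2, so it turned on which blood library was kept. Cxcl12, made mainly by stromal and endothelial cells, measured 54.3, 32.7 and 46.4 in lung and had no reads in blood, which put lung at least 33.7-fold above a floor of 3 reads over the blood group. Cxcl16 had 0 reads in blood too (12.1, 20.4 and 24.7 in lung, at least 14.4-fold higher), and its call was lost without blood replicate 2, where the difference was 2.08.

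Among 15 tested cytokines and growth factors, 8 were higher in lung and 1 lower, with a median of 1.26. Il1b (ENSMUSG00000027398, chromosome 2, 129364570 to 129371139, GRCm38), which encodes the inflammatory cytokine interleukin-1 beta, measured 21400, 29640 and 22775 in lung and 4288 and 2822 in blood. Both blood libraries were therefore far from silent, and the difference was 2.81 (SE 0.28, adjusted p = 2.63e-06 in limma). Per kilobase of exon, Il1b ranked second of 8288 genes in GF lung, behind the calprotectin subunit S100a9, and 29th in GF blood. Osm, the cytokine oncostatin M, measured 1288, 1527 and 1457 in lung and 65.1 and 22.2 in blood (5.07, SE 0.48, adjusted p = 1.84e-06 in limma). Tnf, the gene of tumour necrosis factor, was lower in level, with 64.0, 106 and 139 in lung and 1.40 and 0 in blood (4.83, adjusted p = 1.01e-06 in limma). Il1a stood at 72.4, 97.3 and 202 in lung, while neither blood library had a read of it, which put lung at least 93.8-fold above blood.

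The other called cytokines were Il23a, a subunit of interleukin-23 (45.9, 69.9 and 62.3 in lung, 0.935 and 0 in blood), the vascular growth factor Vegfa (71.2, 72.6 and 49.3 against 6.08 and 7.41), the macrophage growth factor Csf1 (436, 335 and 586 against 195 and 170) and Hbegf, a ligand of the EGF receptor. Hbegf had 0 reads in blood and 15.7, 12.4 and 34.8 in lung, and without blood replicate 2 its difference was 2.13 and did not pass. Tnfsf14 (LIGHT), which acts on lymphoid and stromal cells, went the other way. It measured 96.6, 100 and 102 in lung and 408 and 326 in blood (-1.87, SE 0.24, adjusted p = 1.01e-06 in limma). All 3 lung values were far below both blood values. Il1rn, the interleukin-1 receptor antagonist, overlapped between the groups (1126, 1567 and 1852 in lung, 1047 and 1207 in blood).

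**Figure D2:**
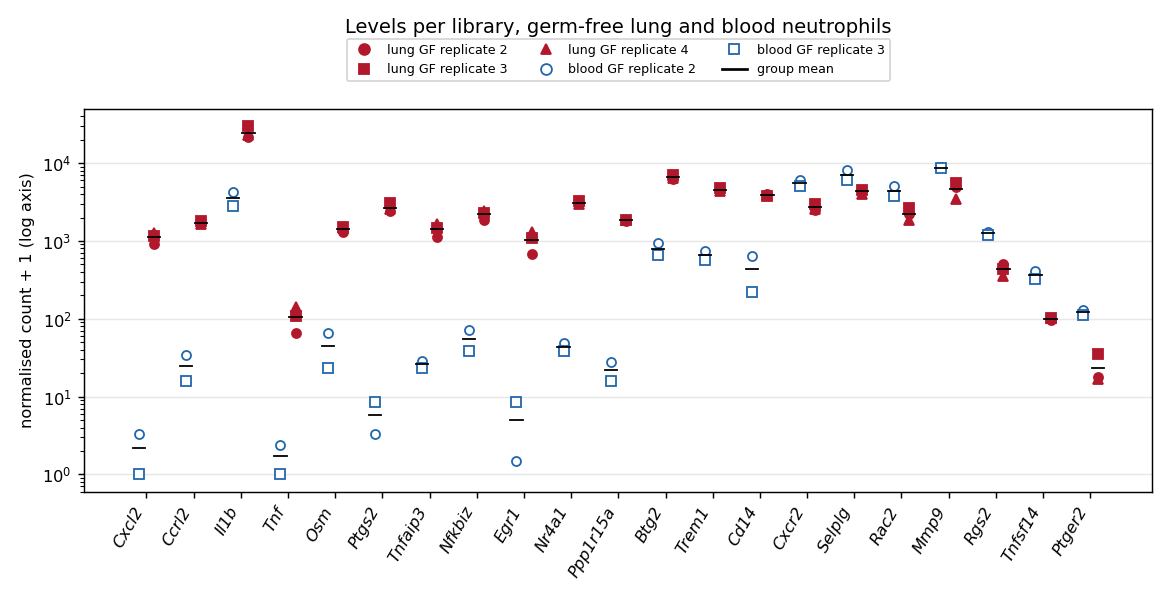
Normalised count plus 1 (log axis) of 21 genes in each GF library, lung in filled red and blood in open blue, with a bar at each group mean. For the first 14 genes, from Cxcl2 to Cd14, every lung library lies above both blood libraries, and for the last 7, from Cxcr2 to Ptger2, every lung library lies below them.

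Receptors for attractants were called in both directions. Of 12 tested, 2 were higher (Ccrl2 and Cxcr4) and 1, Cxcr2, lower, with a median of -0.06. Cxcr4, the receptor that holds neutrophils in the bone marrow and marks aged ones, measured 138, 167 and 145 in lung and 68.2 and 51.9 in blood (1.27, SE 0.33, adjusted p = 0.00902 in limma), and without blood replicate 3 its difference of 1.12 did not pass. The formyl peptide receptor Fpr1, at 494, 605 and 474 in lung and 506 and 400 in blood, and the complement receptor C5ar1, at 3811, 4474 and 3645 against 3834 and 3081, did not pass. For Fpr1, the lung value of 605 lay above both blood libraries, and those of 494 and 474 lay between them.

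Adhesion genes were called in both directions. Of 19 tested, 3 were higher in lung and 3 lower, with a median of -0.12. The lower genes included Selplg (PSGL-1), through which a neutrophil rolls along a vessel wall, and Itgb2, the beta chain of the leukocyte integrins. Selplg measured 4398, 4529 and 4063 in lung and 8035 and 6052 in blood (-0.69, SE 0.17, adjusted p = 0.00459 in limma). Itgb2 measured 2091, 2095 and 1713 in lung and 3206 and 3074 in blood (-0.68, SE 0.18, adjusted p = 0.00994 in limma). None of the 3 lower calls was left without blood replicate 2, where the differences were -0.49 for Selplg and -0.65 for Itgb2, and 1 was left without lung replicate 4, where that of Itgb2 was -0.59. Under quantile normalization the difference of Selplg was -0.17 and did not pass.

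The higher adhesion genes were Icam1, the endothelial and leukocyte ligand of these integrins, Pecam1 and Itgb1. Icam1 measured 202, 212 and 254 in lung and 19.6 and 29.6 in blood (3.06, SE 0.34, adjusted p = 7.36e-08 in limma). Pecam1, a junction protein, was also in the endothelial marker list, whose summed level was 1537 to 2635 in lung and 37.0 to 61.7 in blood. The part of endothelial RNA in the difference of Icam1 or Pecam1 was not tested. Itgb1 differed by 1.68 and by 0.96 without blood replicate 3, where it did not pass. The integrin chain Itgam, which encodes the sorted antigen CD11b, measured 1263, 1053 and 1135 in lung and 1200 and 1099 in blood.

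In prostaglandin and leukotriene metabolism 2 of 13 genes were higher and 1 lower, with a median of 0.08. The higher ones were Ptgs2, the inducible cyclooxygenase, and Hpgd, the enzyme that breaks prostaglandins down. Hpgd measured 379, 272 and 464 in lung and had no reads in blood, which put lung at least 282-fold higher. It is strongly expressed by lung epithelium and endothelium, whose markers were also higher, and the part of their RNA was not tested. Ptger2, a receptor of prostaglandin E2, measured 16.9, 34.5 and 15.95 in lung and 130 and 111 in blood (-2.44, SE 0.40, adjusted p = 5.06e-05 in limma), with every lung library below both blood libraries. The leukotriene enzyme Alox5 measured 557, 590 and 420 against 718 and 652 (-0.41, adjusted p = 0.272 in limma), and its partner Alox5ap (-0.63, adjusted p = 0.0731) was -0.91 and passed without blood replicate 3, and was -0.35 without blood replicate 2. It passed after TMM and median-ratio rescaling too (-0.77 and -0.79).

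NF-kB genes were called in the higher direction alone. Of 23 tested, 6 were higher, 0 lower and 17 not called, with a median of 0.32. All 6 encode proteins induced by NF-kB that act back on it: Tnfaip3, Nfkbiz, Nfkbid, Nfkbia, Nfkbie and the adaptor Traf1. Nfkbia, which holds NF-kB in the cytoplasm, measured 2638, 3477 and 3426 in lung and 670 and 467 in blood (2.49, SE 0.51, adjusted p = 0.00752 in limma). Nfkbid measured 914, 1301 and 1031 against 61.3 and 37.0 (4.39, SE 0.32, adjusted p = 3.48e-11 in limma). No subunit was called. Rela measured 175, 183 and 160 in lung and 225 and 230 in blood (-0.41, adjusted p = 0.363 in limma), and Rel 74.9, 60.2 and 58.0 against 19.7 and 29.6 (1.29, adjusted p = 0.0686 in limma). Rel passed in 4 alternatives, among them the fit of only the 5 GF lung and blood libraries. The calls of Nfkbia and Nfkbie were each lost without 1 library, that of Nfkbia without blood replicate 3 (2.24) and that of Nfkbie without blood replicate 2 (1.26 in place of 2.13).

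To show the regulatory sequence of genes that moved together, stretches upstream of the start of 4 of them are printed, 2 with a match to the kB consensus that NF-kB binds and 2 with the cyclic AMP response element TGACGTCA. These 4 were chosen after the matches were seen. Sequences are from RefSeq (GRCm38.p6), 5′ to 3′ on the gene's strand, ending before the start annotated by both RefSeq and GENCODE, with matches in capitals. They lie at chr5:90903649-90903870 (plus strand) for Cxcl2, chr12:55492648-55492897 (minus) for Nfkbia, chr7:45526269-45526518 (minus) for Ppp1r15a and chr1:134079156-134079405 (minus) for Btg2.
Cxcl2: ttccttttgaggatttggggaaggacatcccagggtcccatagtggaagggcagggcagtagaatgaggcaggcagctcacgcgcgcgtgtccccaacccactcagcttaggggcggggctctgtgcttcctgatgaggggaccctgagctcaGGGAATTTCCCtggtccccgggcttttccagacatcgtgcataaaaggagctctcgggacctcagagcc
Nfkbia: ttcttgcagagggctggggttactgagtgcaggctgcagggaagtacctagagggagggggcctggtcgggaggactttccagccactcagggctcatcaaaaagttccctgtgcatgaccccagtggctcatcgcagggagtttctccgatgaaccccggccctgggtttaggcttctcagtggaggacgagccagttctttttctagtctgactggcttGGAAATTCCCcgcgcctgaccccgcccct
Ppp1r15a: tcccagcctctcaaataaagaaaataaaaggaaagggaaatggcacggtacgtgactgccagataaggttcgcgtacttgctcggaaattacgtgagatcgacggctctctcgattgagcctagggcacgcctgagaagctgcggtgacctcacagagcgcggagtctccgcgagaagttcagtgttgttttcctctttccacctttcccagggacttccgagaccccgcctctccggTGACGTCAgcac
Btg2: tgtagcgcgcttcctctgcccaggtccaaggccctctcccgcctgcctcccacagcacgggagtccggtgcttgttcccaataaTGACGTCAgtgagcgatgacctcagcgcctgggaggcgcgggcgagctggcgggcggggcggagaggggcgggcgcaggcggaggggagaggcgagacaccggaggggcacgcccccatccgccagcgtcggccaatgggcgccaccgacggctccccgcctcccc

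Windows of 300 bases, 250 before and 50 after the start, were searched on both strands. In Cxcl2 the printed stretch ends 28 bases before the RefSeq start, and the match begins 97 bases before that start (69 before the end of the stretch), overlapped by a second on the other strand. In Nfkbia, Ppp1r15a and Btg2 the matches begin 29, 12 and 166 bases before the RefSeq start. The kB consensus matched in 8.18% of 27025 promoters, in 10.3% of those of the 6349 tested genes with a sequence, in 15.4% of 462 called higher in GF lung and in 11.6% of 129 called lower. For the cyclic AMP element the shares were 1.88%, 3.53%, 3.25% and 0.775%, in the same order. For the AP-1 site TGANTCA they were 7.93%, 4.98%, 7.14% and 12.4%, and for the CArG box that serum response factor binds, 1.57%, 1.39%, 2.6% and 3.88%. These shares are a description with no test, and a match is not a bound site.

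Of 21 programme lists, that of first-wave genes, mostly transcription factors, held the most called genes. It also holds other genes, such as Btg2, shared with the messenger RNA decay list, and Per1, shared with the circadian list. Of 25 tested in the AP-1, Egr and Nr4a list, 16 were higher and 1 lower, with a median of 1.92 against 0.15. Btg2, which slows growth and speeds the removal of messenger RNA, measured 6332, 7059 and 6490 in lung and 932 and 652 in blood (3.08, SE 0.27, adjusted p = 2e-08 in limma), and per kilobase it ranked 17th in lung and 206th in blood. Csrnp1 measured 711, 618 and 710 against 51.0 and 14.8 (4.41, SE 0.40). Atf3, a repressor induced by stress, measured 751, 787 and 805 against 145 and 59.3 (3.02, SE 0.35, adjusted p = 8.25e-07 in limma). These 3 genes varied little among the lung libraries.

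Among AP-1 subunits, Fos measured 4637, 4772 and 3683 in lung and 509 and 378 in blood (3.30, adjusted p = 0.00588 in limma). Junb measured 3948, 4280 and 3804 against 1645 and 800 (1.80, adjusted p = 9.44e-07) and Jun 192, 248.7 and 383 against 82.3 and 59.3 (1.86, adjusted p = 0.000312, both in limma). Fosb had 2 reads in all of the blood group and 43.5, 41.6 and 53.6 normalised counts in lung. Klf6 was the lower gene, at 636, 860 and 818 in lung against 1510 and 1207 in blood (-0.82, adjusted p = 0.0142 in limma), a call lost without blood replicate 2 (-0.66) and without lung replicate 2 (-0.69). Klf2, a factor of quiescent leukocytes, measured 30.2, 50.4 and 46.4 against 42.6 and 22.2 and did not pass. The calls of Fosl2 without blood replicate 3 (1.16) and of Klf4 without blood replicate 2 (1.56) and without lung replicates 2 and 4 (2.60 and 2.10) were lost too.

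Dual-specificity phosphatases, which end MAP kinase signals, and other regulators of that pathway, which can also raise it, were called in both directions. Of 13 tested, 3 were higher (Gadd45b, Map3k8 and Dusp16) and 1 lower, with a median of 1.31, and only 1 higher gene was left without lung replicate 3. Map3k8 (1.25) did not pass without lung replicates 3 and 4 or either blood library (1.18, 1.23, 1.42 and 1.08), nor Dusp16 (1.88) without lung replicates 2 and 3 or blood replicate 3 (1.78, 1.73 and 0.94). Gadd45b, a stress sensor that can activate p38 and JNK, measured 519, 758 and 660 in lung and 91.7 and 88.9 in blood (2.78, SE 0.28, adjusted p = 1.71e-08 in limma). Rgs2, a brake on G protein signals, fell by 1.54 on the log2 scale. Its levels were 512, 435 and 352 in lung and 1307 and 1185 in blood (SE 0.22, adjusted p = 4.94e-06 in limma), again without overlap. Dusp1, the phosphatase that shuts off p38, was among the 10 genes of highest mean in GF lung (5360, 10072 and 6549, against 3382 and 2393 in blood), but its difference of 1.31 had an adjusted p of 0.443 in limma. It passed when only the 5 GF lung and blood libraries were fitted.

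Among 17 tested regulators of messenger RNA decay, 3 were higher and 0 lower, with a median of 0.13. These were Btg2, Zfp36 and Zc3h12a. Zfp36 (tristetraprolin), which binds AU-rich elements of cytokine messages, measured 1692, 2243 and 2066 in lung and 686 and 570 in blood (1.66, SE 0.20, adjusted p = 3.27e-07 in limma). Zc3h12a (Regnase-1), an RNase of the same messages, rested on few reads and did not pass without blood replicate 2 (2.77) or without blood replicate 3 (2.83).

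The list of receptors of microbial products held calls in both directions, as it did in SPF mice (7 higher and 4 lower). The difference between GF and SPF mice was called for 0 of its genes. Of 29 tested in GF mice, 4 were higher and 2 lower, beside 7.83% and 1.96% of all genes tested. The median was 0.06, and -0.08 to -0.10 after TMM, median-ratio or quantile rescaling. The higher ones were Trem1, which amplifies such signals, the lipopolysaccharide co-receptor Cd14, the lipopeptide receptor Tlr2 and the C-type lectin Clec4e. Tlr2 measured 805, 887 and 935 in lung and 275 and 237 in blood (1.76, SE 0.28, adjusted p = 3.18e-05 in limma). Tlr4, the lipopolysaccharide receptor itself, measured 128, 115 and 144 against 142 and 104 (0.06, adjusted p = 0.942 in limma). Clec4e differed by 0.92, and by 0.56 without blood replicate 3, where its call was lost, as it was without lung replicate 4 (0.90).

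The lower genes of that list act inside the cell. Irak4, a kinase downstream of most Toll-like receptors, measured 90.6, 64.6 and 58.1 in lung and 170 and 200 in blood (-1.39, SE 0.31, adjusted p = 0.0022 in limma). Myd88, its adaptor, measured 594, 589 and 601 against 1278 and 837 (-0.80, SE 0.23, adjusted p = 0.019 in limma). Myd88 kept its direction when any of the 5 libraries was left out, but its call was lost without blood replicate 2 (-0.50) and without each lung replicate (-0.80, -0.79 and -0.81).

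**Figure D3:**
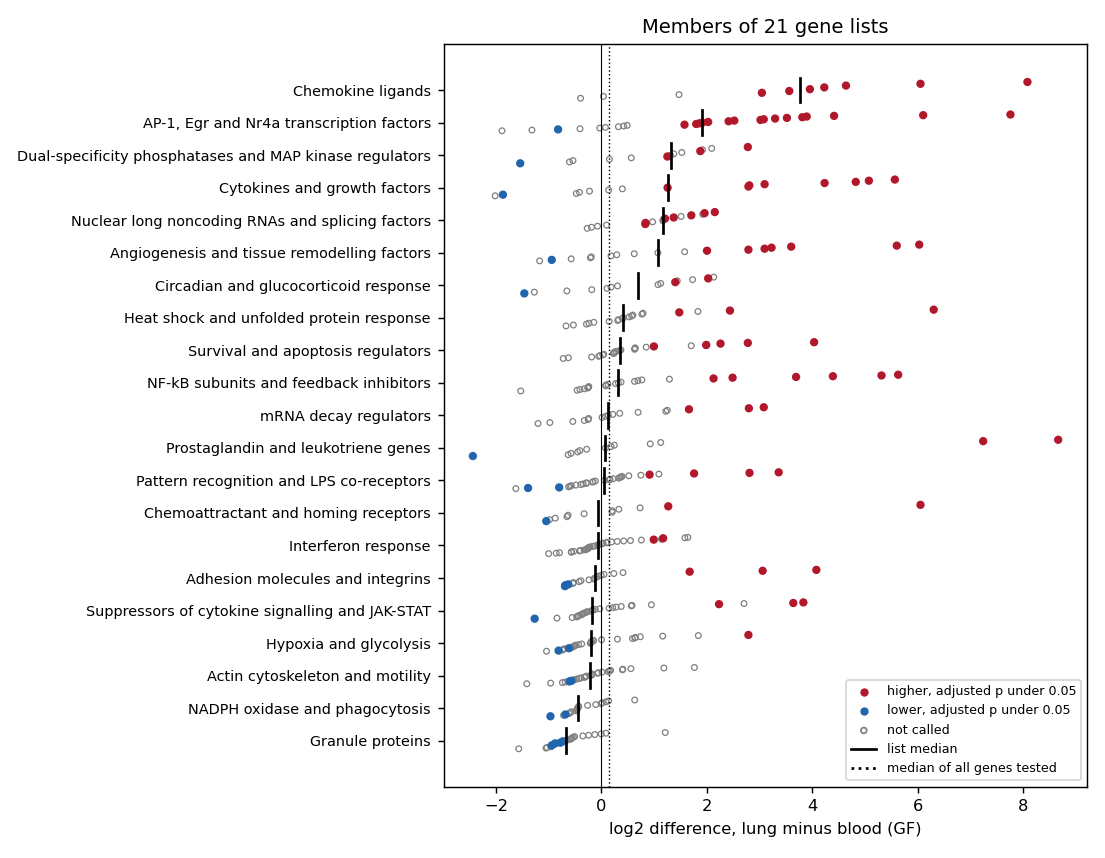
Log2 difference between GF lung and GF blood for each tested member of 21 gene lists, ordered by list median (black bar), with the median of all genes tested as a dotted line at 0.15. Chemokine genes and those of the AP-1, Egr and Nr4a list lie farthest to the right, with medians of 3.76 and 1.92. Granule genes lie farthest to the left, with -0.67.

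Survival and stress genes followed with smaller counts. Of 24 regulators of apoptosis, 5 were higher and 0 lower, with a median of 0.36, and 2 were left without blood replicate 2 and 3 without lung replicate 3 or 4. Pim3, a survival kinase, measured 47.1, 83.2 and 44.9 in lung and 1.40 and 0 in blood (4.04, adjusted p = 4.9e-05 in limma). Bcl2a1b and Bcl2a1d, near-identical copies of a gene that keeps activated neutrophils alive, were called too, but their reads could be shared between the copies. Without blood replicate 2 neither passed (1.25 for Bcl2a1b in place of 1.99, 2.16 for Bcl2a1d in place of 2.26), and Bcl2a1b did not pass without lung replicates 3 and 4 (1.98 and 1.66). Mcl1, on which neutrophil survival rests, measured 306, 407 and 368 against 471 and 252 and did not pass (0.05, adjusted p = 0.973 in limma).

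Of 19 heat shock and unfolded protein genes 3 were higher and 0 lower, with a median of 0.42. The count held without any 1 of the 5 libraries, but its genes changed when either blood library was left out. Ppp1r15a (GADD34), which restarts translation after stress, varied little among lung libraries. It measured 1809, 1873 and 1841 in lung and 26.7 and 14.8 in blood (6.30, SE 0.51, adjusted p = 1.66e-07 in limma), so the lung values spanned 64 normalised counts. Hsp90b1 (1.48) and Dnajb4 (2.44) were the others, and Dnajb4 did not pass without either blood library (2.33 and 2.55).

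Granule genes, which encode the stored enzymes and antimicrobial proteins, were called in the lower direction alone. Of 25 tested 0 were higher and 4 lower, with a median of -0.67, and 23 lay below 0. Mmp9, the gelatinase, measured 4947, 5508 and 3488 in lung and 8804 and 8704 in blood (-0.94, SE 0.20, adjusted p = 0.00157 in limma). Slpi, Hp and Pglyrp1 differed by -0.88, -0.73 and -0.78. Without blood replicate 2, 1 of the 4 calls was left, and 2 without lung replicate 4. For Slpi, Hp and Pglyrp1 the differences without blood replicate 2 were -0.64, -0.42 and -0.59. For Hp and Pglyrp1 they were -0.56 and -0.74 without lung replicate 4, and Pglyrp1 was lost without lung replicate 2 too (-0.74). The count of lower granule genes was 0 without a trended or robust prior. The list median was -0.48 after quantile normalization and -0.80 and -0.82 after TMM and median-ratio rescaling. Quantile normalization brought Mmp9 to -0.38 and Hp to -0.16, where they did not pass. S100a8 and S100a9, the most abundant calprotectin subunits, lay lower in every lung library (7022, 7818 and 6346 against 16263 and 10940 for S100a8) without passing (adjusted p = 0.463 and 0.39 in limma). Both passed when only the 5 GF lung and blood libraries were fitted.

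Genes of killing and movement were called lower at counts that depended on the scaling. Of 19 NADPH oxidase and phagocytosis genes 0 were higher and 2 lower (Rac2 and Itgb2), with a median of -0.45, and only Rac2 was left without blood replicate 2 or lung replicate 4. Rac2, the GTPase of the neutrophil oxidase, measured 2212, 2658 and 1877 in lung and 5031 and 3756 in blood (-0.97, SE 0.18, adjusted p = 0.000365 in limma). Cybb, the catalytic subunit, measured 123, 154 and 112 against 107 and 133. Of 29 actin and motility genes 2 were lower (Lcp1 and Coro1a) and 0 higher, with a median of -0.21, and neither passed without blood replicate 2 (-0.42 and -0.43) or without lung replicate 4 (-0.51 and -0.48), nor Lcp1 without lung replicate 3 (-0.53) or Coro1a without lung replicate 2 (-0.61), while 4 genes passed without blood replicate 3. Lcp1 differed by -0.57, and by 0.08 after quantile normalization. After TMM, median-ratio and quantile rescaling the lower counts were 4, 5 and 2 for the oxidase list and 4, 5 and 0 for the actin list, which then also had 1 higher gene after the last.

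Of 28 hypoxia and glycolysis genes 1, Vegfa, was higher and 2, Eno1 and Pkm, were lower, with a median of -0.20; without blood replicate 2, 2 were higher. The count of lower genes depended on the scaling, with 5 after TMM, 6 after median-ratio and 1 after quantile rescaling, and 9 with voom. Eno1 measured 1779, 1363 and 1097 in lung and 2944 and 2008 in blood (-0.81, adjusted p = 0.0115 in limma), and Pkm 2865, 2718 and 2252 against 4682 and 3378 (-0.61, adjusted p = 0.0223 in limma). Both calls were lost without blood replicate 2 (-0.54 and -0.38) and without lung replicate 4 (-0.64 and -0.51). The transporter Slc2a1 measured 385, 320 and 387 against 328 and 259 and did not pass.

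Genes of receptors and targets of other cytokines moved singly. Among 29 genes of JAK-STAT signalling 3 were higher and 1 lower, with a median of -0.17, and none of these 4 passed without blood replicate 2. Ifngr2, a chain of the interferon-gamma receptor, measured 45.9, 48.7 and 55.1 in lung and 139 and 104 in blood (-1.26, adjusted p = 0.00232 in limma; -1.08 without blood replicate 2). The higher genes Il6st, Cish and Socs2 differed by 3.83, 3.64 and 2.23, and by 2.18, 1.99 and 1.81 without that library. Socs2 did not pass without lung replicates 3 and 4 either (2.03 and 1.98). Il6st and Cish were highest in lung replicate 4. Of 37 interferon response genes 2 were higher and 0 lower, with a median of -0.07. Over all genes tested 7.83% were higher and 1.96% lower, so the counts of the JAK-STAT and interferon lists are not read as traits of these lists. Slfn4 measured 631, 578 and 735 against 383 and 270 (0.99, adjusted p = 0.00337 in limma) and Isg15 167, 189 and 144 against 57.5 and 88.9 (1.172, adjusted p = 0.0294 in limma). Slfn4 did not pass without blood replicate 3 (0.75), and Isg15 not without blood replicate 2 (0.84) or any lung replicate (1.167, 1.08 and 1.27).

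Of 17 angiogenesis and remodelling genes 7 were higher and 1, Mmp9, lower, with a median of 1.07 (2 lower without lung replicate 2). Thbs1, a matrix protein of platelets and activated leukocytes, measured 2253, 2125 and 1963 in lung and 117 and 252 in blood (3.60, SE 0.53, adjusted p = 0.000408 in limma). Plaur, the urokinase receptor, measured 1431, 1854 and 1731 against 507 and 333 (2.004, SE 0.27, adjusted p = 3.26e-06 in limma). F3, tissue factor, measured 24.2, 40.7 and 40.6 against 1.87 and 0. Timp3, an inhibitor of matrix proteases that stromal cells make, had no reads in blood and was at least 119-fold higher in lung (144, 141 and 186), beside stromal markers that were also higher.

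In the circadian and glucocorticoid list 2 of 14 genes were higher and 1 lower, with a median of 0.69. Per1, a clock gene that glucocorticoids and cyclic AMP induce, measured 97.6, 91.2 and 87.0 in lung and 25.7 and 14.8 in blood (2.03, adjusted p = 0.00709 in limma), while Sgk1, a kinase that glucocorticoids induce, measured 152, 112 and 146 against 421 and 333 (-1.46, SE 0.29, adjusted p = 0.000661 in limma). Tsc22d3 (GILZ), another such target, measured 2657, 2402 and 2218 against 7164 and 4750 without passing (-1.27, adjusted p = 0.138 in limma), but passed when only the 5 GF lung and blood libraries were fitted and in 4 other alternatives. Per1 was lost without blood replicate 3 (1.79). Bhlhe40 (1.40) was lost without either blood library (1.38 and 1.42) and without lung replicates 2 and 4 (1.42 and 1.009).

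Several nuclear RNAs and splicing genes were higher in lung. Of 16 long noncoding RNAs and splicing factors 7 were higher and 0 lower, with a median of 1.17, but 3 were left without blood replicate 3 or without lung replicate 3. Neat1, the scaffold of paraspeckles, measured 481, 550 and 639 in lung and 165 and 88.9 in blood (2.15, SE 0.29, adjusted p = 2.17e-06 in limma). Srsf5 and Ddx5, which act in splicing, differed by 1.37 and 1.21 (adjusted p = 5.33e-05 and 6.65e-05 in limma). All 13 mitochondrially encoded genes were higher, with a median of 3.52 and 11 to 13 of them called when any 1 library was left out. Their summed level was 5905, 6989 and 12728 in lung, highest in replicate 4, and 851 and 607 in blood. The part of this shift in the other differences was not tested.

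Defining transcripts of other cells were present in lung libraries although every library was sorted for Ly6G. All 12 tested endothelial markers, 13 of 16 epithelial markers and 7 of 11 fibroblast, smooth muscle and mesothelial markers were higher, and 0 lower, with medians of 4.98, 3.38 and 3.50. The count of epithelial markers was 7 without blood replicate 2. Summed levels of the epithelial list were 4557, 12258 and 11496 in lung and 391 and 274 in blood, and those of the stromal list 3604, 3751 and 3521 against 1929 and 1633. Cav1, of caveolae in endothelium and flat alveolar cells, measured 358, 321 and 608 in lung and Ager, of alveolar type I cells, 197, 213 and 167, against 0 reads in both blood libraries for Cav1 and 1.87 and 0 for Ager. Scgb1a1, the secretoglobin of club cells, measured 78.5, 2121 and 2049, so that lung replicate 2 held far less airway RNA than the others, and its call (6.62, adjusted p = 0.0183 in limma) was lost without blood replicate 2 (5.17) and without lung replicates 3 and 4 (5.82 and 5.85).

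Among immune and blood cells, 6 of 7 dendritic cell markers were higher (median 2.95, summed level 722 to 854 in lung, 64.1 to 119 in blood) and none lower. The higher ones include the antigen presentation genes Cd74 and H2-Ab1 (2.725 and 3.96), which are not confined to dendritic cells. Clec9a (2.41, 0.885 and 11.6 in lung) and Batf3 (1.21, 0.885 and 2.9), also in that list, were too low to be tested. In the alveolar macrophage list 1 of 7 was higher, and summed levels overlapped (1416 to 2038 in lung, 1473 to 1742 in blood). In the monocyte list 1 of 12 was higher, Nr4a1, and 1 lower. Its summed level was 4684, 4741 and 4408 in lung and 2309 and 1563 in blood, with Nr4a1, also a first-wave gene, at 3064, 3245 and 2966 against 47.2 and 37.0. Csf1r, the receptor that defines monocytes, measured 757, 713 and 782.5 in lung and 1150 and 740.8 in blood. The lower monocyte gene, Cd68, was not called without blood replicate 2 or any lung replicate. Siglecf, of alveolar macrophages and eosinophils, measured 85.7, 45.1 and 52.2 in lung and 119 and 59.3 in blood. Of 12 B cell markers 2 were higher (1 without blood replicate 2 or lung replicate 4, 3 without blood replicate 3, 4 without lung replicate 2) and of 3 T and NK cell markers 0. Of 5 basophil, mast cell and eosinophil markers 2 were higher, Gata2 (4.27) and Kit (4.33), while the summed level overlapped (3891 to 4214 in lung, 3667 to 4796 in blood). Of 17 neutrophil genes 2 were higher (Trem1 and G0s2) and 3 lower, among them Cxcr2 and Mmp9, with a median of -0.51. Only 2 were lower without either blood library or without lung replicate 2 or 4. Their summed level was 54950, 57686 and 47262 in lung and 82230 and 63077 in blood. Of 13 erythroid markers 7 were lower and 0 higher (median -5.13), with summed levels of 83652 and 100822 in blood and 2936, 890 and 899 in lung. That count was 4 without each of blood replicates 2 and 3 and lung replicates 3 and 4. Of 14 platelet markers 8 were lower and 3 higher (Sparc, Thbs1 and Vwf, which stromal or endothelial cells also make). Its summed level was nonetheless higher in lung, at 2875, 2760 and 2579 against 1297 and 1148, with Thbs1 the largest part of it in lung. In all, 46 of the 650 higher and 16 of the 163 lower genes stood in a marker list other than that of neutrophil genes. So did 7 of the 15 largest increases and 12 of the 15 largest decreases. These lists are short and include neutrophil precursor genes, Nr4a1 and Thbs1, so the counts do not measure the amount of RNA from other cells. The part of such RNA in the other differences was not tested.

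**Figure D4:**
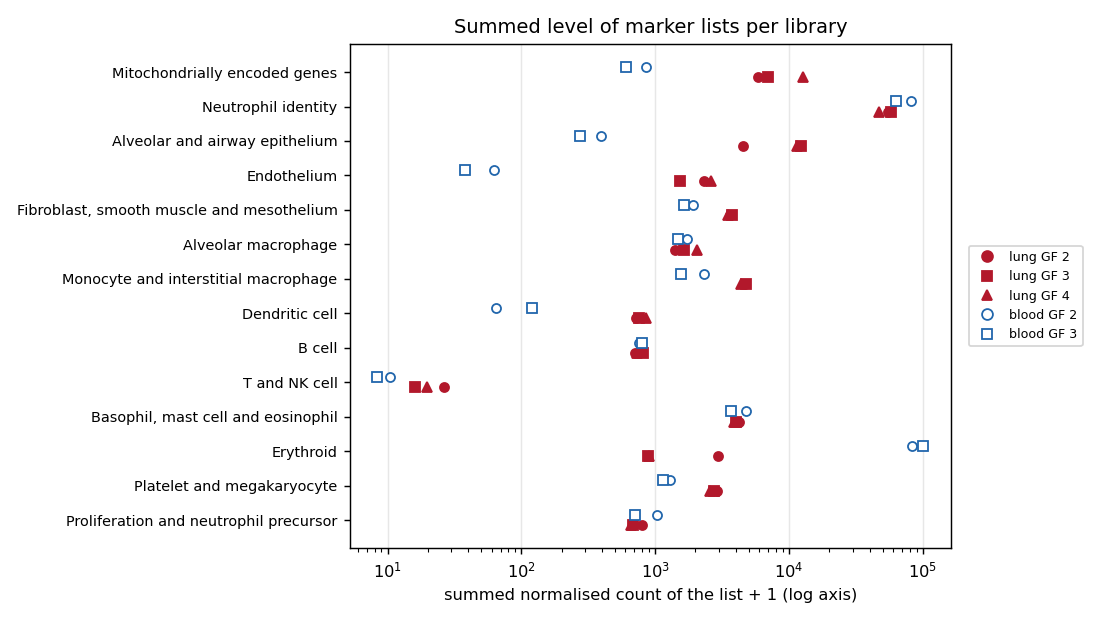
Summed normalised count plus 1 (log axis) of mitochondrially encoded genes, neutrophil genes and 12 further marker lists in each GF library, lung in filled red and blood in open blue. The 12 lists mark other cells, except that of proliferation and neutrophil precursor genes. Epithelial and endothelial sums are higher in every lung library, with lung replicate 2 lowest for epithelium (4557) and lung replicate 3 for endothelium (1537), and erythroid sums are higher in both blood libraries.

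Transcripts with 0 reads in both blood libraries made up 148 of the 650 higher genes, and their lower bounds ran from 6.67-fold to 334-fold with a median of 19.9-fold. The highest bounds belonged to Inmt (334-fold), Cav1 (325-fold), Tspan7 (323-fold), Hpgd (282-fold) and Cbr2 (187-fold), which lung stromal, endothelial or epithelial cells express. Large increases of Gpx3 and Pltp, an extracellular peroxidase and a lipid transfer protein, rested on 1 blood read each (625, 456 and 561 and 327, 260 and 382 in lung).

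The same comparison in SPF mice used other libraries but the same estimate of each gene's spread. Calls in GF and SPF mice are therefore not fully independent. There 1585 genes (19.1%) differed, 1035 higher (12.5%) and 550 lower (6.63%) in lung. Of the 650 genes higher in GF lung, 511 (78.6%) were called in the same direction in SPF mice and 3 in the opposite one, and of the 163 lower genes 113 (69.3%) and 0. The 624 genes called alike were 76.8% of the GF calls and 39.4% of the SPF calls. Medians of the 650 higher genes were 2.73 in GF and 2.75 in SPF mice, and those of the 163 lower genes -1.26 and -1.19. The sign was the same for 69.3% of all genes tested.

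Tested directly, the tissue difference itself differed between GF and SPF mice for 1 gene of 8299 (0.012%), the nuclear noncoding RNA Malat1, with 623 genes at an unadjusted p under 0.05. For Il1b the lung minus blood difference was 2.81 in GF and 1.53 in SPF mice (difference of differences 1.28, SE 0.40, adjusted p = 0.414 in limma). SPF blood held 10489 and 10019 normalised counts of it and SPF lung 30451, 30672 and 27488. For Thbs1 the differences were 3.60 and 6.57 (-2.97, SE 0.75, adjusted p = 0.3), with 32.5 and 11.8 in SPF blood. Rgs2, lower in lung in both, differed by -1.54 and -2.58 (1.04, adjusted p = 0.302). None of these 3 passed, so a difference between GF and SPF mice was not shown for them.

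**Figure D5:**
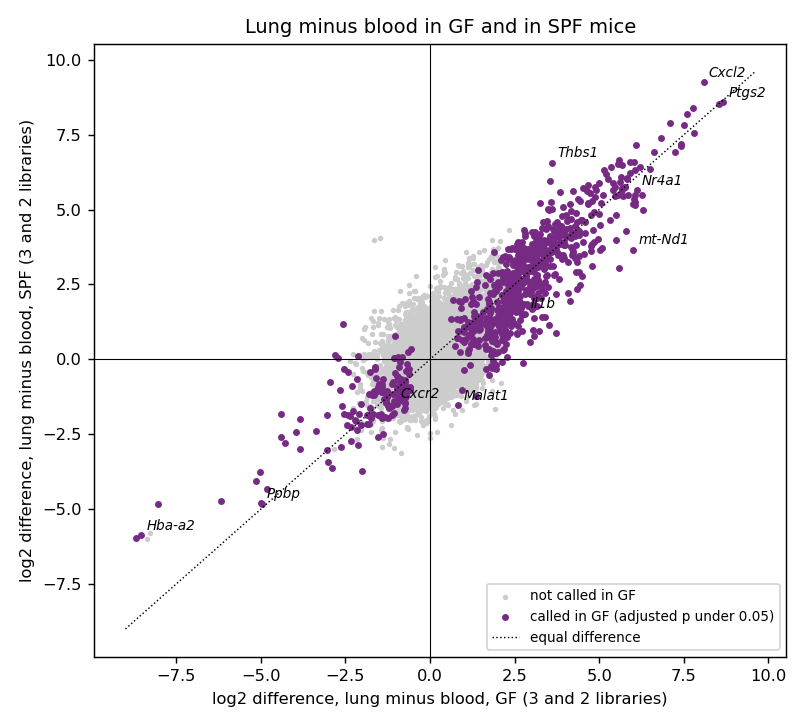
Log2 difference between lung and blood in SPF mice (vertical axis) against that in GF mice (horizontal axis) for 8299 genes, with genes called in GF mice in purple and a dotted line where both are equal. Most purple points lie on the same side of 0 on both axes (788 of 813), and Malat1 lies on opposite sides (0.84 in GF, -1.52 in SPF).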

How the data were processed

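Neutrophil RNA of 16 mouse libraries was sequenced as 61 nt paired-end reads, per the labels' protocols. The submitters' processing notes name CASAVA, RSEM 1.3.1, limma and mm10, while the annotation version and the scaling are not given in the sources used here. The deposited signal of 10296 genes behaves as estimated reads plus 0.5, times a factor of the library: 91.4% to 98.7% of values under 10 reads lay within 0.05 of a whole read. The offset was taken off for the levels printed. Identifiers were matched to GENCODE M21 (10275 of 10296).

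The test took the 8299 genes that reached 10 in 2 or more libraries (1997 were removed) and ran on log2(value + 1) in limma 3.58.1 under R 4.3.3, with 6 group means over 16 libraries, a trended robust prior, two-sided p-values adjusted by Benjamini-Hochberg over every tested gene, at a threshold of 0.05. Differences on this scale understate those of low genes. The fit was tested on simulated data. Genes were named as the 15 largest called in each direction without overlap and with a mean of at least 10 in the higher group, the members of each list with the smallest p (8 at most), and the 10 highest means per group, and up to 5 for the difference between GF and SPF mice; not all were printed. Fos, Jun, Fosb, Fosl2, Klf4, Klf6 and Vwf fall outside the rule and were chosen after their values were seen. The members and lists were chosen with earlier results of these data known. A floor of 3 reads over a group bounds genes at 0 reads and covers counting error only. Genes with near-identical copies (haemoglobins, Bcl2a1, mitochondrial genes) or overlapping genes are uncertain, since no strand-aware counting is stated. Alternatives were other pseudocounts, filters, scalings, priors, weights, sample sets and a replicate block, and leaving out each library. Some called genes are not reported here.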

Additional observations from a re-analysis of the deposited data

Results flagged for a closer look

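The lung minus blood difference of Malat1, an abundant nuclear long noncoding RNA (ENSMUSG00000092341, chromosome 19, 5795690 to 5802672), differed between GF and SPF mice by 2.36 on the log2 scale (SE 0.32, adjusted p = 0.000253 in limma). This call was lost without a trended or robust prior and with a replicate block, and kept under the other alternatives run. It measured 2064, 3062 and 3069 in GF lung and 1813 and 1241 in GF blood, a difference of 0.84 (adjusted p = 0.0125). In SPF mice it measured 2638, 2550 and 2588 in lung and 8730 and 6360 in blood, a difference of -1.52 (adjusted p = 9.3e-06). All 3 lung libraries stood above both blood libraries in GF mice and below them in SPF mice, and the SPF blood libraries were the highest of the 10. Within GF mice the call was lost without blood replicate 3, the shallow library (0.57), and without lung replicates 3 and 4 (0.75 and 0.74).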

How the results depend on the processing

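The count of genes called between GF lung and GF blood was 813. It was 384 with a filter of 100, 1240 with lung and blood libraries only, 1454 with voom weights on recovered reads, and 524 to 663 when each of the 5 libraries was left out in turn. Under the other alternatives it was 618 to 1091. Between SPF lung and blood the count was 1585, and 921 with a filter of 100, 2707 with array weights, 3109 with voom, 706 to 1294 without 1 library, and 2588 without the 5 libraries under 250000 reads, an alternative chosen after seeing the data. The difference between GF and SPF mice gave 1 call, and 3 without a filter, 3 after quantile normalization, 0 without a trended or robust prior, 37 with array weights, 53 with lung and blood libraries only, 67 with voom, 18 without the 5 shallow libraries and 1 to 28 without 1 library, with 28 without blood GF replicate 2. The cause was not tested. The correlations of deviations from group means ran from -0.13 to 0.07 over 9 same-numbered pairs, and 0 exceeded 0.1. With so few libraries per group, these values cannot decide whether same-numbered libraries share an animal. A replicate block gave 618 calls in GF mice, 988 in SPF mice and 0 for their difference.

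Of 172 named genes 151 were called, and 98 of them kept the call under every alternative run for them. Lcp1 and Ftl1 (-0.57 and -0.75) reversed only after quantile normalization (0.076 and 0.085). Without blood replicate 2 the calls of 38 named genes were lost, and without blood replicate 3 of 21. Depth limits low blood levels, since 1 read of blood replicate 3 was worth 7.41 normalised counts.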

Other observations

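Beyond the lists, metabolic and signalling genes that were picked after their values were seen also differed between GF lung and GF blood. Irg1, the enzyme that makes itaconate, measured 953, 1059 and 961 in lung and 147 and 37.0 in blood (3.65, SE 0.45, adjusted p = 2.32e-05 in limma). Pde4b, the phosphodiesterase that lowers cyclic AMP, measured 1414, 1306 and 1328 against 251 and 215 (2.52, SE 0.22, adjusted p = 8.65e-10). Slc16a3, a lactate exporter, measured 1729, 1345 and 1199 against 421 and 245, and Hcar2, a receptor of niacin and ketone bodies, 510, 793 and 753 against 159 and 133. For each of these 4 genes every lung library was above both blood libraries, and the call was kept without any 1 of the 5 libraries.

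Lower in lung were Ubb, one of the ubiquitin genes (4758, 4544 and 4181 in lung, 11092 and 10101 in blood, -1.24), the lysosomal protease Ctsd (3253, 3457 and 2682 against 7219 and 6215, -1.11), the attractant precursor Il16 (565, 599 and 460 against 1383 and 1258, -1.29) and Tnfaip8l2, which damps immune receptor signals (74.9, 94.7 and 59.4 against 405 and 229.6, -2.01). G0s2, an inhibitor of lipid breakdown that the neutrophil list holds, went up instead, at 2489, 2941 and 2023 against 164 and 111 (4.15, SE 0.45, adjusted p = 1.05e-05 in limma). No test of why these genes differed was made.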
